A study of Mus musculus with 12 samples.

Results

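Messenger RNA of cultured primary mouse hepatocytes was compared between cells given liproxstatin-1 before FAC (Lip-1+FAC, 3 libraries) and cells given FAC without a pretreatment (FAC, 3 libraries). These 6 libraries were chosen by their titles from the 12 of the series, and every gene with enough counts was examined. The other 6 libraries, 3 of untreated control cells and 3 of cells given Mito-TEMPO before FAC (MT+FAC), enter the fit and stand beside the results. All groups are primary hepatocytes from mouse liver, and the scavengers were added on day 2 of the culture. FAC is the usual abbreviation of ferric ammonium citrate, an iron salt, although the labels do not spell it out. By their labels liproxstatin-1 scavenges lipid reactive oxygen species (ROS) and Mito-TEMPO those of mitochondria. A scavenger was never given without FAC, so an effect of liproxstatin-1 on unloaded cells cannot be told apart from an effect on the FAC response. Strain, sex, dose and duration are not given in the sources used here. Nothing states that the 3 replicates of a group came from separate cultures or animals, so p-values measure the spread between these samples, which may be technical.

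As background, excess iron feeds the chain reaction in which polyunsaturated fatty acids of membrane phospholipids are oxidised, and a cell that cannot stop this reaction dies by ferroptosis. Glutathione, made from cystine imported by the transporter Slc7a11, feeds the phospholipid peroxidase Gpx4, and Aifm2 (FSP1) regenerates lipid-soluble radical traps. Liproxstatin-1 is itself a radical trap that stops lipid peroxidation. The transcription factor NRF2 (Nfe2l2) drives many antioxidant and glutathione genes, HIF drives genes of glycolysis and blood vessel growth, and SREBP2 drives sterol synthesis.

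Gene-assigned reads numbered 22991598 to 31683376 per library, except 52529278 in FAC replicate 2, whose file is marked as combined. The share of listed reads assigned to a gene was 75.8% to 77.8% in FAC and 80.4% to 81.2% in Lip-1+FAC. Reads mapping to several places made up 5.85% to 6.23% of the reads in FAC and 4.93% to 5.19% in Lip-1+FAC. Hepatocyte markers were far above those of every other cell type listed, and the 10 of them summed to 21960 to 22270 CPM (read counts scaled to the size of the library) in FAC. After liproxstatin-1 the sum was 18270 to 18990 CPM, with 6 markers called lower and 1 higher. Markers of lymphocytes stayed at or under 0.475 CPM in sum in all 12 libraries and those of neutrophils at or under 0.218 CPM. Of the lymphocyte markers, 7 of 10 had no read in any library, as had 5 of 8 neutrophil markers.

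Promoter sequences are shown first for called members of the gene lists below, 1 or 2 for each of the sterol, antioxidant, hypoxia, CArG and TEAD motifs. Members with a large change were picked only where the promoter held the motif, so its presence there was fixed by the choice. Each sequence is the stretch of 250 bases before the annotated start, 5′ to 3′ on the gene's strand, from RefSeq on build GRCm38.p6. Capitals mark matches of the motif the gene is shown for, and matches of the other motifs are not marked. Motifs were searched on both strands in windows of 300 bases, from 250 before to 50 after each start. They were the sterol regulatory element core TCACNCCAC, the antioxidant response element core TGACNNNGC, the hypoxia response element core ACGTG, the TEAD core GGAATG, the AP-1 element TGANTCA and the CArG box bound by SRF. A stretch can meet both the antioxidant and the AP-1 letters.

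The sterol regulatory element core lies once in the promoter of the mevalonate pathway gene Hmgcs1, whose expression rose:
Hmgcs1, chr13:119690101-119690350, plus strand: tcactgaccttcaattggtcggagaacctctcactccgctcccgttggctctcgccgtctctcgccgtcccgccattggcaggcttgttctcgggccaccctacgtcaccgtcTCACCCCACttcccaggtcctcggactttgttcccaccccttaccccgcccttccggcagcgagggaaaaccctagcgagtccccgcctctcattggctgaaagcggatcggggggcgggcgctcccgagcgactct

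The antioxidant response element core lies in the promoters of the export pump genes Abcc4 and Abcc2, which rose:
Abcc4, chr14:118706220-118706469, minus strand: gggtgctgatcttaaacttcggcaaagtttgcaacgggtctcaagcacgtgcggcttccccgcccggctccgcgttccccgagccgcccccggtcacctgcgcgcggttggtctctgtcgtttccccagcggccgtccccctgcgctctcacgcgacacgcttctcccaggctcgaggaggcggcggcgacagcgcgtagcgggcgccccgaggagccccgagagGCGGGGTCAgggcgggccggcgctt
Abcc2, chr19:43782058-43782307, plus strand: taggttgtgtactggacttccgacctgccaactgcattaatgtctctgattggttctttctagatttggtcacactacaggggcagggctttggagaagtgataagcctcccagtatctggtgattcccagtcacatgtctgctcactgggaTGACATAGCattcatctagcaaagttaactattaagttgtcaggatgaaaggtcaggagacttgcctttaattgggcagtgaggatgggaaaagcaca

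The hypoxia response element core occurs in the promoters of hexokinase 2 (Hk2) and of the lactate exporter Slc16a3, which fell:
Hk2, chr6:82774455-82774704, minus strand: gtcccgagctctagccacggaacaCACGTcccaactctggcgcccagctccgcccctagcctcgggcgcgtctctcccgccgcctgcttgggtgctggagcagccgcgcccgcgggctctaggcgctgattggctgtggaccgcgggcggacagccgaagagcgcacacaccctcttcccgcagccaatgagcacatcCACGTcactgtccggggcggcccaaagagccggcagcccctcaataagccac
Slc16a3, chr11:120948817-120949066, plus strand: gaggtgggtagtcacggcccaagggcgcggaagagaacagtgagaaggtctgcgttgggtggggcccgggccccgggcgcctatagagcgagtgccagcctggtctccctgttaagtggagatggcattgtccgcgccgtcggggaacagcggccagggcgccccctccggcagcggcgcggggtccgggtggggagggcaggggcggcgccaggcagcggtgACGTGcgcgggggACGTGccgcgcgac

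The CArG box lies in the promoter of skeletal alpha-actin, Acta1, and the TEAD core in those of Ankrd1 and Ccn1, and all of these genes fell:
Acta1, chr8:123894776-123895025, minus strand: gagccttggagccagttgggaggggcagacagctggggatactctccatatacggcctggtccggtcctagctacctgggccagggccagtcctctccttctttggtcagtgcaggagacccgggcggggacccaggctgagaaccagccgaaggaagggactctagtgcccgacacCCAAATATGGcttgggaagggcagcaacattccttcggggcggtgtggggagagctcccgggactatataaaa
Ankrd1, chr19:36119845-36120094, minus strand: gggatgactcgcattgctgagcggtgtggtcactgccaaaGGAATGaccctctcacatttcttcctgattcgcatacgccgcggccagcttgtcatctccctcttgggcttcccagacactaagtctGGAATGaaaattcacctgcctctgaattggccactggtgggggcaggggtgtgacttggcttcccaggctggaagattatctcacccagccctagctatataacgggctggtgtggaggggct
Ccn1, chr3:145649986-145650235, minus strand: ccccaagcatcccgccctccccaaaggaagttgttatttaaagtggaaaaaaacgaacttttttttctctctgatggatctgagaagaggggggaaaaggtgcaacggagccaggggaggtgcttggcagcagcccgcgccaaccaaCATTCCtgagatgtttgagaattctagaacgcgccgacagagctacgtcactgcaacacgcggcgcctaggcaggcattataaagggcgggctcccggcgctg

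The hypoxia core was found in 17 of 33 promoters of the HIF targets matched (51.5%) and in 22 of 57 of the glycolysis genes (38.6%), beside 19.63% of all 32841 promoter windows. For the antioxidant core the share was 29.8% of 57 promoters of NRF2 targets, beside 12.40% of all windows. The TEAD core occurred in 57.9% of 19 promoters of YAP-TEAD targets, beside 14.66%, and the CArG box in 13.7% of 51 promoters of cytoskeleton genes, beside 1.63%. Among cholesterol genes 1 of 39 promoters held the sterol core (2.6%), beside 1.24% of all windows. The AP-1 letters were found in 1 of 25 promoters of the EGFR-MAPK genes (4.0%), beside 7.81%. The CArG box was also found in 20.8% of 24 promoters of AP-1 and immediate early genes, which belonged to 2 of the 18 genes matched. Further lists gave the TEAD core in 10.8% of 37 promoters of matrix and adhesion genes, the antioxidant core in 15.2% of 33 promoters of glutathione and cystine genes and the AP-1 letters in 0 of 24 promoters of AP-1 and immediate early genes. A match describes letters in a window and is neither a binding site nor a cause of the change in expression.

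Liproxstatin-1 before FAC changed a large share of the transcriptome. Of 13535 genes tested, 39.9% were called at an adjusted p under 0.05 (edgeR's quasi-likelihood test with Benjamini-Hochberg adjustment), 20.7% higher and 19.2% lower in Lip-1+FAC than in FAC. For 50.8% of the genes all Lip-1+FAC libraries lay on one side of all FAC libraries. Those changed by a log2 fold change of at least 1 were more often lower, with 430 higher (3.18%) and 685 lower (5.06%) of 1115 such genes (8.24%). The median log2 fold change of all genes was 0.00062, and the median of its size was 0.29. In bulk samples such as these, fewer cells of a type and less RNA per cell cannot be told apart.

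**Figure D1:**
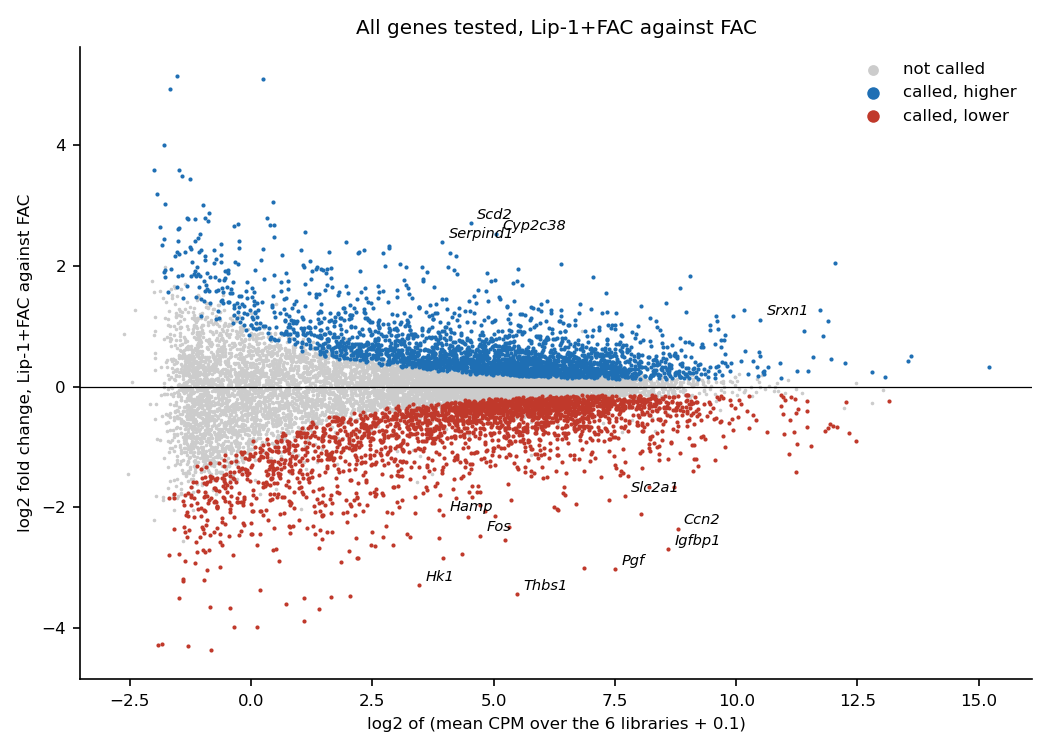
Each point is a gene tested, with log2 of its mean CPM over the 6 libraries on the horizontal axis and its log2 fold change in Lip-1+FAC against FAC on the vertical axis. Of the 13535 genes, 2804 were called higher and 2593 lower at an adjusted p under 0.05.

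Scd2 headed the rises among the genes that the naming rule allows. Scd2 (ENSMUSG00000025203, chromosome 19, 44293674 to 44306864, GRCm38) encodes a stearoyl-CoA desaturase that introduces a double bond into saturated fatty acids. It stood at 5.63, 6.47 and 6.26 CPM in the 3 FAC libraries and at 40.4, 38.9 and 40.9 CPM in the 3 Lip-1+FAC libraries. Each Lip-1+FAC library was far above each FAC library, and above the control libraries at 10.9, 13.2 and 13.1 CPM. Its log2 fold change was 2.70 (± 0.107 SE, adjusted p by edgeR 1.67e-11). Its liver paralogue Scd1 stood at 1634, 1447 and 1798 CPM in FAC and 1731, 1449.7 and 1724 CPM in Lip-1+FAC. These ranges overlapped, and the log2 fold change of 0.0078 was not called and turned its sign under 6 alternatives. Over a stretch of 623 bases the transcripts of both genes are 95.5% identical.

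Other large rises included genes of liver metabolism and secretion, a theme that was not tested. Cyp2c38, a drug-metabolising P450, rose by 2.52 on the log2 scale, and Serpind1 (heparin cofactor 2, an inhibitor of thrombin) by 2.39. Akr1c20 (an aldo-keto reductase) rose by 2.21. Csad, an enzyme of taurine synthesis, rose by 1.95, and Inhbc, a secreted activin subunit, by 2.03. Each of these 5 genes had an adjusted p by edgeR of 1.7e-05 or less. Slc22a27 and Zfp970 also ranked among the 15 largest rises, but near-identical copies make their counts uncertain.

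Among genes under the naming rule Thbs1 fell most. Thbs1 (ENSMUSG00000040152, chromosome 2, 118111876 to 118127133), which encodes the matrix protein thrombospondin 1, stood at 72.2, 70.6 and 103 CPM in FAC and at 5.79, 9.33 and 7.61 CPM in Lip-1+FAC. The groups did not overlap, and the control libraries lay between them at 32.3, 26.1 and 23.5 CPM. On the log2 scale the change was -3.43 (± 0.311 SE, adjusted p by edgeR 1.96e-05). Akap12, a scaffold of protein kinase A signalling, fell from 208 ± 12.9 to 25.9 ± 7.54 CPM (SD, n = 3), and Igfbp1, a secreted binding protein of insulin-like growth factors, from 670.4 ± 37.4 to 104 ± 6.81 CPM (SD, n = 3). Sphk1 (sphingosine kinase 1) fell by 2.48 on the log2 scale, and Spns2, the exporter of sphingosine 1-phosphate, by 2.76. Cldn4, a tight junction protein, fell by 2.53 and Emp1, an epithelial membrane protein, by 2.49.

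**Figure D2:**
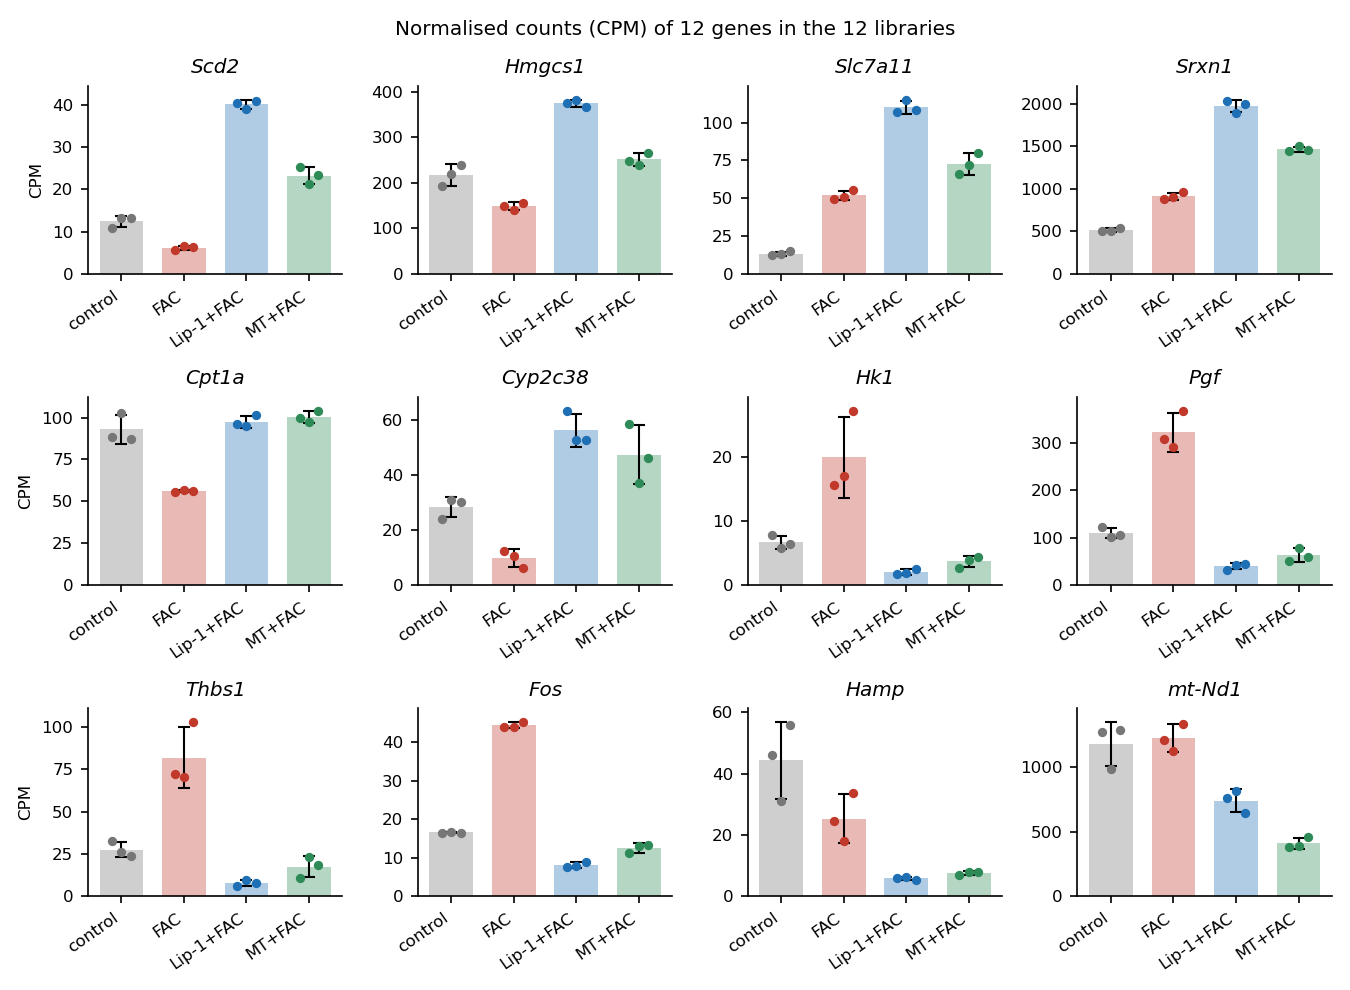
CPM of 12 genes in each library (points) with the mean of the 3 libraries of a group (bar) and the SD (error bar), for control, FAC, Lip-1+FAC and MT+FAC. Scd2 was highest in Lip-1+FAC, and Thbs1, Hk1, Pgf and Fos were highest in FAC.

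Sterol synthesis rose along nearly its whole length. Of 40 cholesterol genes listed and tested, 28 rose and 5 fell, with a median log2 fold change of 0.46, beside 20.7% higher and 19.2% lower over all genes. Among the 21 synthesis enzymes, 19 rose and 1 fell, with a median of 0.93. Hmgcs1, which makes HMG-CoA for the mevalonate pathway, stood at 149.1, 140.1 and 157 CPM in FAC and 375, 382 and 368 CPM in Lip-1+FAC, against 193, 219 and 240.3 CPM in control. All Lip-1+FAC libraries were thus above those of both other groups. On the log2 scale the rise was 1.34 (± 0.0717 SE, adjusted p by edgeR 5.3e-10).

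Idi1, which isomerises the isoprene unit, and Dhcr7, which completes cholesterol, rose most among the enzymes after it. Idi1 stood at 21.8, 21.1 and 26.0 CPM in FAC and 80.0, 77.7 and 62.1 CPM in Lip-1+FAC, and changed by 1.68 (± 0.143 SE, adjusted p by edgeR 8.69e-07). A pseudogene, Gm13502, matches 684 bases of its transcript exactly. Dhcr7 stood at 31.8, 32.3 and 41.0 CPM in FAC and at 95.3, 86.8 and 89.1 CPM in Lip-1+FAC, and changed by 1.37 (± 0.103 SE, adjusted p by edgeR 4.75e-08). Neither gene had overlapping groups.

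Squalene epoxidase, Sqle, rose by 0.31. Tm7sf2, a sterol reductase, was the enzyme that fell, with a log2 fold change of -0.34, and Ggps1, at the branch to other isoprenoids, was not called, at -0.21.

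Regulation and uptake moved less evenly. Srebf2, the sterol-sensing transcription factor, rose by 0.32, and Insig1, which retains it in the endoplasmic reticulum when sterols are plentiful, by 0.95. Scap, the escort of SREBP, changed by -0.33 and Srebf1 by -0.19, both called lower. Of 8 genes of efflux and esterification, 4 rose and 1 fell. Abcg5, a subunit of the canalicular sterol exporter, rose by 1.04, whereas Abca1, which loads cholesterol onto apolipoprotein A1, was not called at -0.26.

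Fatty acid synthesis rose in part. Of 39 lipogenesis genes tested of 41 listed, 16 rose and 7 fell (59% called, beside 39.9% of all genes). Among the 6 synthesis enzymes 5 rose. Fasn, the fatty acid synthase, stood at 167, 187 and 171 CPM in FAC and at 289, 285 and 339.8 CPM in Lip-1+FAC, with no overlap and a log2 fold change of 0.80 (± 0.178 SE, adjusted p by edgeR 0.00564). Acaca, which makes malonyl-CoA, rose by 1.26, with counts made uncertain by the near-identical copy Gm5182, and Acly, which supplies cytosolic acetyl-CoA, by 0.73. The desaturases of polyunsaturated fatty acids went the other way, with Fads2 at 365, 353 and 449 CPM in FAC and 176, 208 and 221 CPM in Lip-1+FAC, and Fads1 changed by -0.48. The log2 fold change of Fads2 was -0.95 (± 0.112 SE, adjusted p by edgeR 2.23e-05).

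Lipid droplet genes were mixed, 3 higher and 4 lower of 12. Cidec, which fuses droplets, changed by -0.90, and Hilpda, an inhibitor of lipolysis, by -1.40. Plin2, the main droplet coat protein of hepatocytes, was not called at -0.084.

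For the same sterol and fatty acid genes the FAC effect is given beside these values, with the warning that both comparisons use the FAC libraries. In FAC against control, 36.6% of all genes were called, 17.5% higher and 19.1% lower. Of the 21 sterol synthesis enzymes, 1 was higher and 15 were lower in FAC, with a median of -0.51. In Lip-1+FAC against control, where 30.2% of all genes were called (15.4% higher, 14.8% lower), 15 of the 21 were higher and 2 lower, with a median of 0.43. Fasn and Acaca did not pass the test in FAC against control, at 0.11 and 0.14, and were higher in Lip-1+FAC than in control by 0.91 and 1.40.

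**Figure D3:**
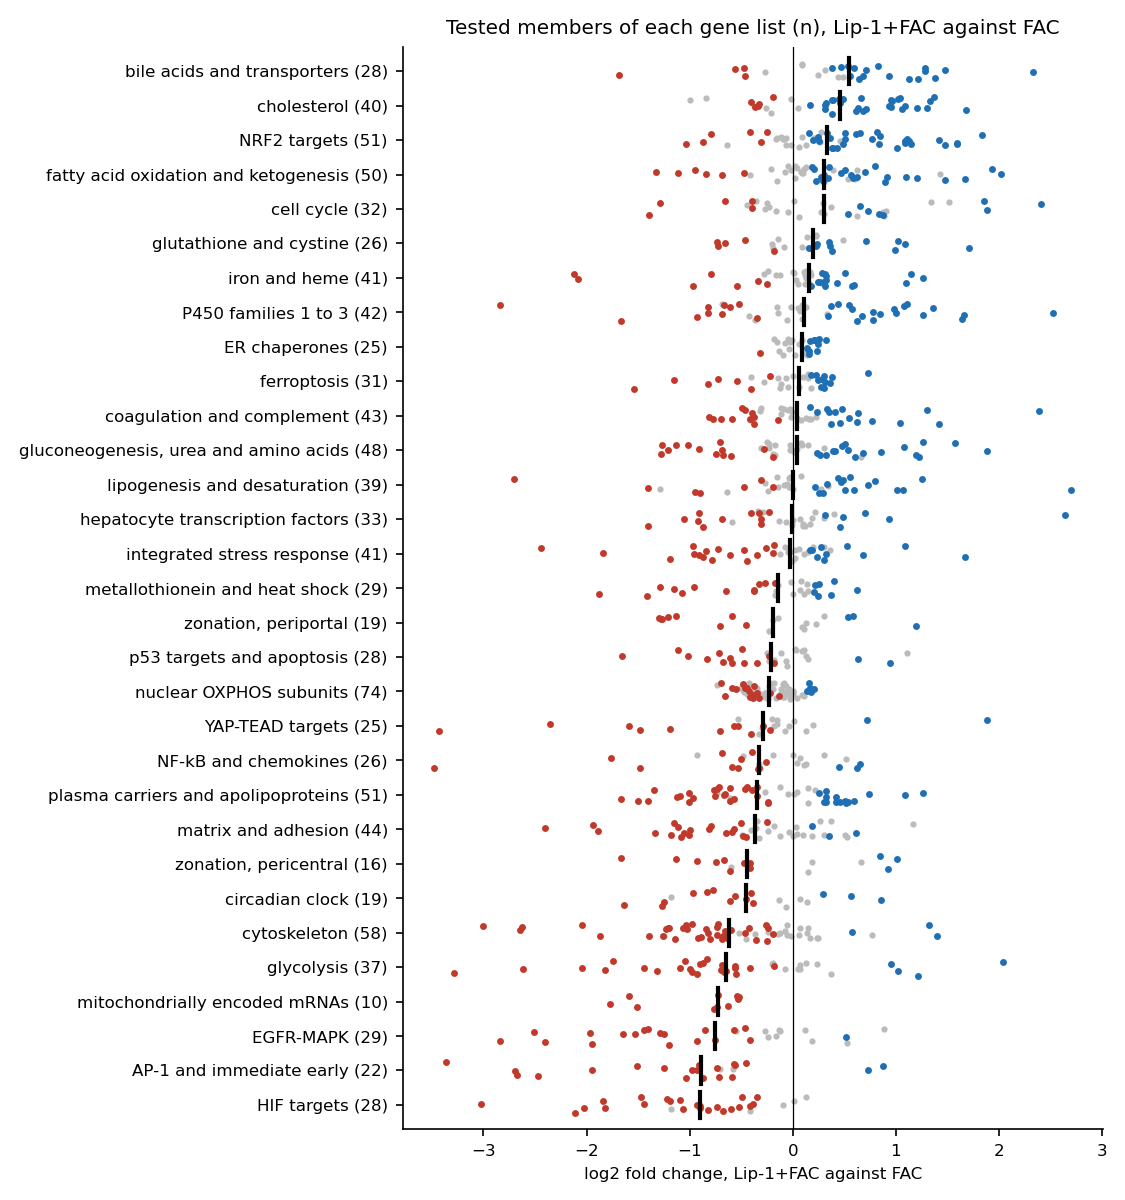
Each point is a tested member of a gene list, placed by its log2 fold change in Lip-1+FAC against FAC, blue where called higher, red where called lower and grey where not called, with the median of the list as a bar. Cholesterol genes and NRF2 targets lie mostly above 0, and HIF targets, glycolysis, cytoskeleton and AP-1 genes mostly below it.

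Most antioxidant genes driven by NRF2 were higher in Lip-1+FAC than in FAC. Of 51 NRF2 targets and partners, all tested, 29 rose and 6 fell (68.6% called, beside 39.9% of all genes), with a median of 0.33. The rises were in the glutathione system (12 of 15), in quinone and carbonyl reduction (5 of 6), in conjugation and export (4 of 6) and in the thioredoxin system (3 of 5). Of the 6 NADPH-producing genes 2 rose and 1 fell, and of the 5 iron and heme genes 1 rose and 2 fell.

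Slc7a11 (ENSMUSG00000027737, chromosome 3, 49892526 to 50443614), the cystine importer on which glutathione synthesis depends, stood at 49.5, 50.5 and 55.5 CPM in FAC and 107, 115 and 108 CPM in Lip-1+FAC. Control libraries were far lower, at 12.3, 12.9 and 14.9 CPM, and the MT+FAC libraries lay between FAC and Lip-1+FAC at 66.0, 71.8 and 80.1 CPM. The log2 fold change against FAC was 1.09 (± 0.0812 SE, adjusted p by edgeR 2.13e-08) and against control 3.04.

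Glutathione synthesis followed in unequal steps. Gclc, the catalytic subunit of the rate-limiting ligase, stood at 8058, 8131 and 8272 CPM in FAC and 9156, 8835 and 9391 CPM in Lip-1+FAC, a rise of 0.16 that was not called without FAC replicate 1, without Lip-1+FAC replicate 3 or with offsets for GC content and length. Its modifier subunit Gclm rose by 0.36. Gss, the synthetase of the second step, rose from 221 ± 3.45 to 439 ± 43.7 CPM (SD, n = 3), by 0.99, with 15.4% of its exons overlapping another gene. Gsr, which reduces oxidised glutathione, rose by 0.38.

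Glutathione S-transferases, which join glutathione to reactive lipids and drugs, included the largest rise among the NRF2 targets, that of Gstm3. Gstm3 stood at 238, 229.9 and 225 CPM in FAC and 951, 771 and 749.5 CPM in Lip-1+FAC, and changed by 1.83 (± 0.197 SE, adjusted p by edgeR 6.88e-05). Gsta2 rose by 1.59, Gstm4 by 1.14, Gsta3 by 1.09 and Gstm1 by 0.84. Transferases were not uniform, since Gstm2 (-0.094) and Gsta4 (-0.064) were not called. Gsta2 and Gsta1 share 97.2% of their bases and Gstm3 shares 97.9% with Gm8834, so their separate counts are uncertain.

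Srxn1 (sulfiredoxin, which repairs over-oxidised peroxiredoxins) stood at 878, 909.7 and 959 CPM in FAC and 2034, 1893 and 1996 CPM in Lip-1+FAC, and rose by 1.11 (± 0.0543 SE, adjusted p by edgeR 2.83e-10). Nqo1, a quinone reductase, stood at 11.9, 12.7 and 12.1 CPM in FAC and at 32.1, 32.5 and 34.0 CPM in Lip-1+FAC, and rose by 1.42 (± 0.114 SE, adjusted p by edgeR 4.75e-08). In both genes each Lip-1+FAC library was far above each FAC library. Cbr3, a carbonyl reductase, rose by 1.60, and the export pumps Abcc2 and Abcc4 rose by 1.13 and 1.47. Thioredoxin itself, Txn1, was not called (-0.15), although its reductase Txnrd1 rose by 0.43.

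The NRF2 targets tied to heme and iron did not share the rise. Heme oxygenase 1, Hmox1 (ENSMUSG00000005413, chromosome 8, 75093621 to 75100589), which opens the heme ring and frees its iron, stood at 2595, 2580.0 and 2504 CPM in FAC and at 1442, 1458 and 1535 CPM in Lip-1+FAC. Its level was lower in each Lip-1+FAC library than in each FAC library and still far above control, at 341, 284 and 269.6 CPM. The log2 fold change was -0.79 (± 0.0871 SE, adjusted p by edgeR 2.85e-06) against FAC and 2.31 against control. G6pdx, which makes NADPH, changed by -0.87, and Bach1, the heme-sensing repressor of Hmox1, by -0.42. Of the regulators, Nfe2l2 rose by 0.20 and Keap1, which marks NRF2 for degradation, was not called at -0.12.

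In FAC against control 31 of the 51 NRF2 genes were higher and 6 lower, with a median of 0.49, and in Lip-1+FAC against control 39 were higher and 1 lower, with a median of 0.79. These comparisons share libraries with the one above, and no test between them is given.

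Ferroptosis genes as a group moved in both directions. Of 31 tested of 35 listed, 11 rose and 7 fell, with a median of 0.058 beside 0.00062 over all genes, and the share called was 58.1% beside 39.9%. Alox12, Alox15, Alox5 and Ptgs2 had too few counts to be tested. Gpx4 (ENSMUSG00000075706, chromosome 10, 80047166 to 80056439), which reduces phospholipid hydroperoxides, stood at 343, 354 and 371 CPM in FAC and 448, 429 and 374 CPM in Lip-1+FAC. The groups did not overlap, but FAC replicate 3 and Lip-1+FAC replicate 3 nearly met. The log2 fold change was 0.23 (± 0.0668 SE, adjusted p by edgeR 0.0113), the call was lost without Lip-1+FAC replicate 1 (0.18), and offsets for GC content and length raised it to 0.68. A pseudogene, Gpx4-ps2, matches it at 99.7%.

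Aifm2 stood at 45.6, 49.4 and 50.2 CPM in FAC and at 58.0, 61.2 and 60.9 CPM in Lip-1+FAC, and rose by 0.31 (± 0.0643 SE, adjusted p by edgeR 0.000875). Acsl4, which loads polyunsaturated fatty acids for incorporation into phospholipids, was not called, at 0.15 (± 0.0679 SE, adjusted p by edgeR 0.0966), and neither was Lpcat3, which inserts them, at 0.0058. Por, a flavoprotein reductase that feeds electrons to P450 enzymes and can drive lipid peroxidation, stood at 1052, 1187 and 1025 CPM in FAC and 585, 618 and 639.9 CPM in Lip-1+FAC, and changed by -0.82 (± 0.071 SE, adjusted p by edgeR 9.53e-08). Mboat2, an enzyme that puts monounsaturated fatty acids into phospholipids, was low, at 1.61, 1.67 and 2.18 CPM in FAC and 0.437, 0.715 and 0.719 CPM in Lip-1+FAC. Its change of -1.54 lost its call without Lip-1+FAC replicate 1. Chac1, a glutathione-degrading enzyme, changed by -0.72 and Hspb1, a small heat shock protein, by -1.16.

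Among iron genes the largest falls were in hepcidin and in a target gene of the same signal. Of 41 iron and heme genes tested of 44 listed, 16 rose and 7 fell (56.1% called, beside 39.9% of all genes). Their median was 0.16. Hamp, which encodes the hormone hepcidin, stood at 24.5, 17.8 and 33.6 CPM in FAC and 5.75, 6.18 and 5.33 CPM in Lip-1+FAC, against 46.1, 30.9 and 55.9 CPM in control. Lip-1+FAC libraries were the lowest in each case. Hamp changed by -2.12 (± 0.265 SE, adjusted p by edgeR 8.67e-05) on the log2 scale. Id1, a target of BMP-SMAD signalling like Hamp, changed by -2.08, Atoh8 by -0.97 and Tfr2, the iron-sensing transferrin receptor of hepatocytes, by -0.34. Hfe2 (hemojuvelin), a coreceptor of that pathway, rose by 1.15 and Hfe by 0.50, whereas Smad7 (-0.24) and Bmp6 (0.12) were not called.

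The genes that answer to cellular iron through iron regulatory proteins showed small differences. Tfrc, the receptor of transferrin iron, stood at 27.8, 25.9 and 20.2 CPM in FAC and 18.7, 19.1 and 23.2 CPM in Lip-1+FAC, with overlapping groups, far below 74.0, 65.2 and 59.6 CPM in control. Its log2 fold change was -0.28 (± 0.119 SE, adjusted p by edgeR 0.0673). It passed the test without FAC replicate 3 (-0.40), without Lip-1+FAC replicate 3 (-0.38), with the offsets (-0.42) and with no filter on low counts. Fth1, a ferritin subunit, changed by -0.25 (± 0.0704 SE, adjusted p by edgeR 0.00833), a call lost without Lip-1+FAC replicate 3. The exporter Slc40a1 (ferroportin) rose by 0.18 (± 0.0532 SE, adjusted p by edgeR 0.013), a call lost without FAC replicate 3 or with the offsets. Slc39a14, which takes up iron outside transferrin, changed by -0.54.

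Among secreted iron and heme carriers, 4 were looked at after their values were seen. Cp, ceruloplasmin, which oxidises iron for loading onto transferrin, stood at 2142, 2106 and 1745 CPM in FAC and at 5001, 4589 and 4830.3 CPM in Lip-1+FAC, and rose by 1.27 (± 0.0802 SE, adjusted p by edgeR 3.91e-09). Trf (transferrin) rose by 0.33, Hpx (hemopexin) by 0.51 and Hp (haptoglobin) by 1.09. Of the 17 plasma carriers listed, 4 rose and 11 fell, and of the 15 acute phase genes 5 rose and 8 fell. In heme synthesis the rate-limiting Alas1 rose by 0.60 and Fech, which inserts the iron, by 0.33.

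**Figure D4:**
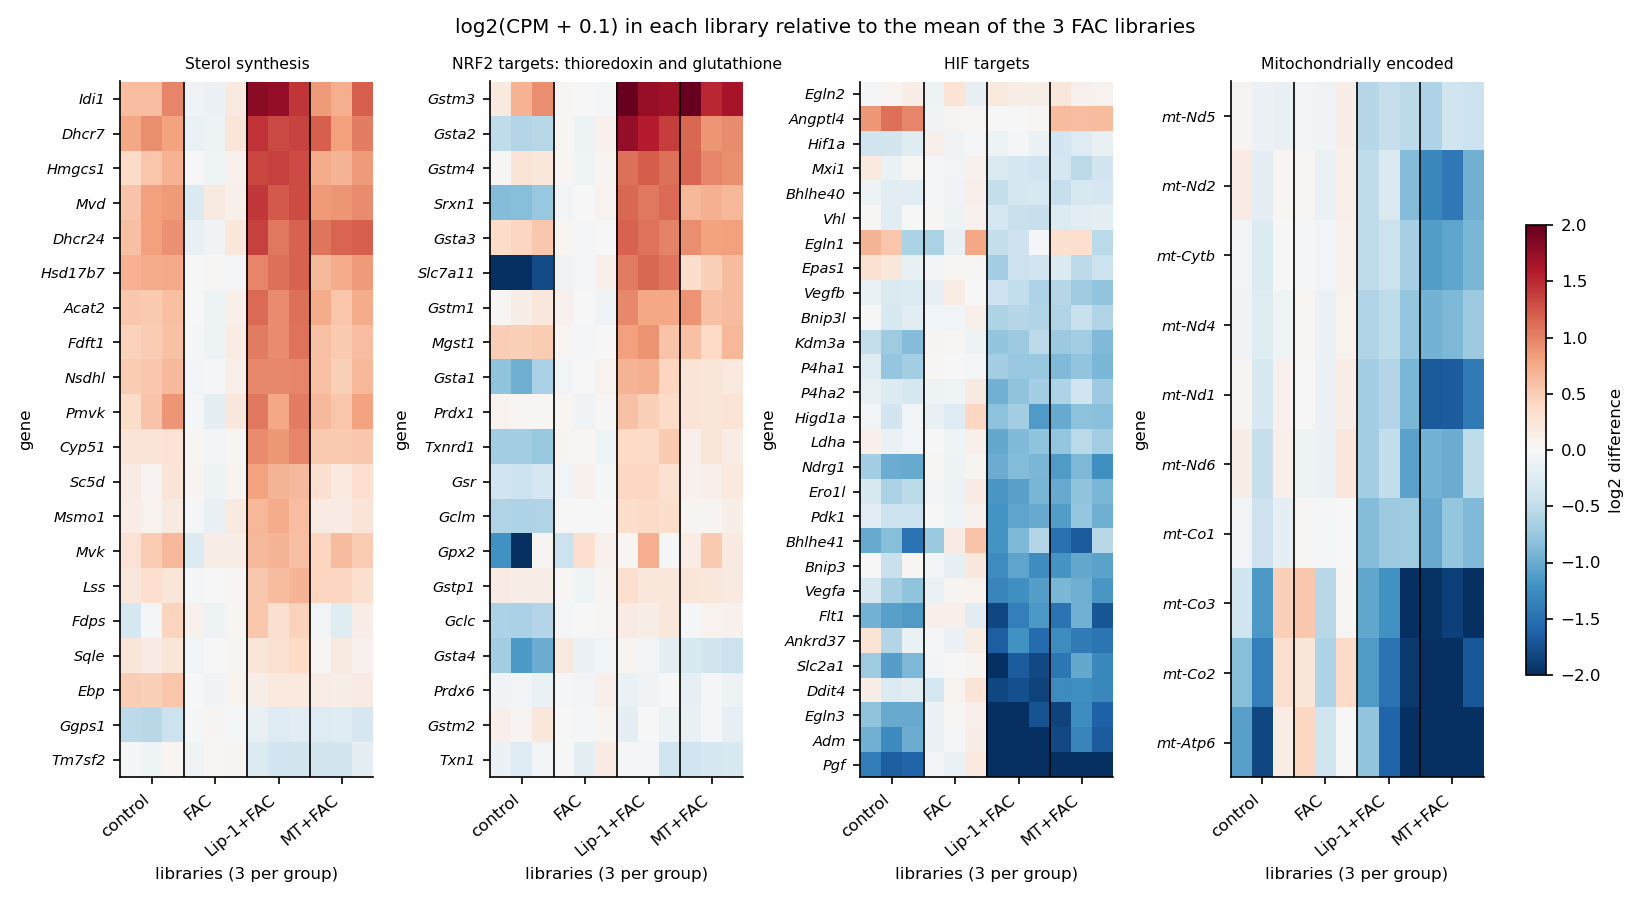
Each cell is log2(CPM + 0.1) of a gene in a library minus the mean of the 3 FAC libraries, with colours limited to the range of the scale shown, for enzymes of sterol synthesis, the thioredoxin and glutathione members of the NRF2 targets, HIF targets and mitochondrially encoded mRNAs. Rows of sterol synthesis are mostly red and rows of HIF targets mostly blue in all 3 Lip-1+FAC libraries.

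Genes of glycolysis and of the hypoxia response fell, and the lists share members such as Slc2a1 and Ldha. Of 28 HIF targets tested of 30 listed, 23 fell and 0 rose, with a median of -0.90, beside 19.2% lower over all genes. No HIF target was higher at an adjusted p under 0.05 by edgeR or by DESeq2, and 0 were higher at an unadjusted p under 0.05. The largest positive value was 0.13. Of 37 glycolysis genes tested of 40 listed, 24 fell and 4 rose, with a median of -0.65.

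Pgf (ENSMUSG00000004791, chromosome 12, 85166635 to 85177790), placental growth factor, stood at 308, 291 and 367 CPM in FAC and 31.8, 42.4 and 44.9 CPM in Lip-1+FAC, with control at 122, 102 and 105 CPM. The Lip-1+FAC libraries were below those of control, and the FAC libraries above. On the log2 scale Pgf changed by -3.02 (± 0.186 SE, adjusted p by edgeR 8.3e-07). Adm (adrenomedullin, a vasodilator peptide) stood at 395, 419 and 469 CPM in FAC and 88.3, 106 and 102 CPM in Lip-1+FAC, and changed by -2.11 (± 0.13 SE, adjusted p by edgeR 1.8e-07). Vegfa, the main angiogenic growth factor, stood at 433, 495 and 497 CPM in FAC and 189, 202 and 222 CPM in Lip-1+FAC, and changed by -1.22 (± 0.117 SE, adjusted p by edgeR 5.04e-06). In both genes the groups were clearly apart.

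The prolyl hydroxylase Egln3, which marks HIF for degradation and is itself a HIF target, changed by -2.03, and Ddit4, an inhibitor of mTORC1, by -1.84. Bnip3, a mitophagy receptor, changed by -1.19, Ndrg1 by -0.93 and Pdk1, which shuts pyruvate out of mitochondria, by -1.09. Of the factors themselves, Hif1a was not called (-0.095), and Epas1 (HIF-2 alpha) changed by -0.49. Angptl4, a lipoprotein lipase inhibitor, was not called in Lip-1+FAC against FAC (0.012).

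The rises in the list included the lactate transporter Slc16a7 (0.95), and the largest falls were in hexokinases. Hk1 (ENSMUSG00000037012, chromosome 10, 62268855 to 62379908), a high-affinity hexokinase, stood at 15.5, 17.1 and 27.2 CPM in FAC and 1.67, 1.93 and 2.54 CPM in Lip-1+FAC, and changed by -3.28 (± 0.246 SE, adjusted p by edgeR 8.58e-08). Hk2 stood at 7.75, 9.98 and 10.5 CPM in FAC and at 1.09, 1.97 and 1.52 CPM in Lip-1+FAC, and changed by -2.62 (± 0.269 SE, adjusted p by edgeR 1.02e-06). In neither gene did the groups overlap.

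Aldoa, the aldolase of muscle, changed by -0.68 and Aldoc by -0.69. Pkm, the pyruvate kinase of non-hepatic cells, changed by -1.32, and the liver enzyme Pklr was not called at -0.19. The pseudogene Gm6560 is 98.4% identical to part of Pkm.

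The steps shared by all tissues were also lower. Of the 7 lower enzymes tested 6 fell, among them Gapdh (-0.67), Pgk1 (-0.83) and Eno1 (-0.65), abundant genes that are often used as references. Ldha, which makes lactate, changed by -0.90, from 7386 ± 469.7 to 3949 ± 288 CPM (SD, n = 3), and the lactate exporter Slc16a3 by -2.04. The glucose transporter Slc2a1 stood at 310.3, 324 and 336 CPM in FAC and 81.3, 102 and 92.3 CPM in Lip-1+FAC, and changed by -1.82 (± 0.119 SE, adjusted p by edgeR 1.42e-07), whereas the liver transporter Slc2a2 was not called at 0.23. Pfkfb3, which makes the activator of phosphofructokinase, changed by -1.44.

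In FAC against control 15 HIF targets were higher and 1 lower, and 13 glycolysis genes were higher and 5 lower. In Lip-1+FAC against control 1 HIF target was higher and 20 were lower (median -0.59), and 2 glycolysis genes were higher and 22 lower (median -0.44). Pfkfb3 and Ldha did not pass the test in FAC against control, at -0.046 and 0.022, and were lower in Lip-1+FAC than in control, with log2 fold changes of -1.48 and -0.88.

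Cytoskeleton and cell-shape genes fell. Of 58 listed and tested, 36 fell and 3 rose (67.2% called, beside 39.9% of all genes), with a median of -0.62. All 6 intermediate filament genes fell, as did 9 of 11 genes of actin and its partners. Acta1 stood at 219.9, 258 and 302 CPM in FAC and 52.0, 86.1 and 75.1 CPM in Lip-1+FAC, and changed by -1.87 (± 0.247 SE, adjusted p by edgeR 0.000328). The abundant keratins Krt8 and Krt18, the keratins of hepatocytes, changed by -0.73 and -0.98, and beta-actin, Actb, by -0.68. Srf, the factor that binds the CArG box, changed by -1.06, whereas its coactivators Mrtfa (-0.37) and Mrtfb (0.23) were not called. The 3 rises were in Mylk (1.40), Lgals1 (1.32) and Tuba1a (0.58).

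Krt19 stood at 6.69, 8.83 and 14.4 CPM in FAC and 1.27, 1.86 and 1.61 CPM in Lip-1+FAC, and Krt7 at 0.804, 0.709 and 1.41 CPM and 0.146, 0.179 and 0.127 CPM. Both are keratins of bile duct cells, and fell by 2.65 and 2.63 on the log2 scale. Among the 10 cholangiocyte markers listed, of which 7 were tested, 4 were lower and 1 higher (71.4% called, beside 39.9% of all genes). Sox9 went from 53.4 ± 4.10 to 12.01 ± 1.47 CPM (SD, n = 3) and Epcam from 1.26 ± 0.184 to 0.227 ± 0.0578 CPM (SD, n = 3), while Spp1 went from 43.6 ± 4.69 to 101 ± 8.67 CPM (SD, n = 3). The list summed to 113.3 to 145.3 CPM in the FAC libraries and, after liproxstatin-1, to 129.3 to 140.3 CPM, and its part in the fall of the keratins was not tested.

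The stellate cell and fibroblast list summed to 30.1 to 38.6 CPM in the FAC libraries and, after liproxstatin-1, to 14.5 to 17.4 CPM, with Reln at 16.1 ± 0.139 and 4.53 ± 0.958 CPM (SD, n = 3) holding much of it and 1 of 10 markers, Ngfr, at 0 in every library. Acta2 stood at 9.13, 10.8 and 16.4 CPM in FAC and 4.18, 5.54 and 5.46 CPM in Lip-1+FAC. Among the 6 members tested 2 were lower and 0 higher, with a median of 0.13 and 33.3% called, beside 39.9% of all genes. The Kupffer cell list summed to 295.2 to 329 CPM in the FAC libraries and, after liproxstatin-1, to 124 to 152.4 CPM. Cd68, a lysosomal protein, carried most of that sum going from 295 ± 15.7 to 124 ± 16.5 CPM (SD, n = 3). All 10 Kupffer cell markers were tested, and 1 was higher and 2 were lower (30% called). Endothelial markers summed to 37.7 to 38.9 CPM in the FAC libraries and, after liproxstatin-1, to 32.1 to 32.9 CPM. Stab2, a scavenger receptor, was the member called lower (26.5 ± 0.779 to 17.9 ± 1.98 CPM, SD, n = 3), while of the 9 tested 2, Fcgr2b (1.10) and Tek (0.97), were higher and the median was 0.27, with 33.3% of the list called. The part of these cells in the results on matrix, chemokine and cytoskeleton genes was not tested.

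YAP-TEAD targets, which answer to cell spreading and stiffness, split by role. Of 25 tested of 26 listed, 11 fell and 2 rose (52% called, beside 39.9% of all genes), with a median of -0.29. All 6 secreted targets fell (median -1.53), while 2 of the 7 feedback genes fell. The rises were in Birc5 (1.88), a survival factor with overlapping groups, and Myof (0.72). Birc5 lost its call without FAC replicate 1 (1.48) or 2 (1.37), without Lip-1+FAC replicate 1 (1.58) or 2 (1.90), and with no other group in the fit (1.88). Ccn2 (ENSMUSG00000019997, chromosome 10, 24595442 to 24598683), connective tissue growth factor, stood at 761, 749 and 710.2 CPM in FAC and 139, 156 and 140.2 CPM in Lip-1+FAC, with control at 315, 304 and 345 CPM. Its FAC libraries were the highest and its Lip-1+FAC libraries the lowest. Ccn2 changed by -2.35 (± 0.135 SE, adjusted p by edgeR 1.46e-07), and 23.2% of its exons overlap those of another gene. Ccn1 changed by -0.70 and Ankrd1 by -1.19. Yap1 (-0.15) and Wwtr1 (-0.18), the coactivators, were not called, and Amotl2, a feedback inhibitor, was at -0.034.

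Of 44 matrix and adhesion genes tested of 49 listed, 20 fell and 3 rose (52.3% called, beside 39.9% of all genes). Their median was -0.36. Col12a1, a fibril-associated collagen, changed by -1.33, Tgfb1 by -1.89 from 1.91 ± 0.426 CPM in FAC (SD, n = 3), and the epithelial cadherin Cdh1 by -1.40. Fibronectin, Fn1, the most abundant matrix gene here, was not called at -0.35.

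Growth factor signalling and immediate early genes were lower in Lip-1+FAC. Of 22 AP-1 and immediate early genes tested of 24 listed, 18 fell and 2 rose, with a median of -0.89. Of 29 EGFR-MAPK genes tested of 32 listed, 18 fell and 1 rose, with a median of -0.76. The called shares of these lists, which share members, were 90.9% and 65.5%, beside 39.9% of all genes. Fos (ENSMUSG00000021250, chromosome 12, 85473890 to 85477273), an AP-1 subunit, stood at 44.0, 44.1 and 45.3 CPM in FAC, at 7.60, 7.72 and 8.84 CPM in Lip-1+FAC and 16.4, 16.8 and 16.4 CPM in control. The 3 groups did not overlap, and Lip-1+FAC was the lowest. Fos changed by -2.47 (± 0.098 SE, adjusted p by edgeR 1.67e-11) on the log2 scale.

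Fosl1, another AP-1 subunit, stood at 6.91, 8.56 and 6.26 CPM in FAC and 2.04, 1.75 and 1.86 CPM in Lip-1+FAC, and changed by -1.95 (± 0.286 SE, adjusted p by edgeR 3.78e-05). Egr1 stood at 90.8, 102 and 86.8 CPM in FAC and 42.9, 53.6 and 50.5 CPM in Lip-1+FAC, and changed by -0.93 (± 0.118 SE, adjusted p by edgeR 1.7e-05). Unlike Fos, both stayed above control in Lip-1+FAC, by 1.21 and 1.31, with edgeR adjusted p-values of 0.0138 and 2.09e-06. Junb changed by -1.51, Jun by -0.74 and Myc by -0.57. The 2 rises were in Klf10 (0.73) and the nuclear receptor Nr4a2 (0.88).

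Among EGFR ligands, Hbegf stood at 6.87, 8.35 and 8.44 CPM in FAC and 1.13, 1.22 and 0.93 CPM in Lip-1+FAC, a change of -2.84 (± 0.234 SE, adjusted p by edgeR 6.02e-08). Areg (amphiregulin) stood at 40.6, 46.1 and 39.2 CPM in FAC and at 12.1, 10.7 and 9.52 CPM in Lip-1+FAC, a change of -1.96 (± 0.117 SE, adjusted p by edgeR 1.76e-09). Tgfa was not called (-0.12), and the receptor Egfr changed by -0.85. Feedback inhibitors of the MAPK cascade fell in 9 of 12 cases. The phosphatases Dusp4, Dusp5 and Dusp6 changed by -1.65, -2.51 and -1.44, although 22.1% of the Dusp5 exons overlap those of another gene. Met, the receptor of hepatocyte growth factor, was the gene that rose, by 0.52.

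In FAC against control 17 AP-1 and immediate early genes were higher (median 0.97) and 0 lower, also 0 at an unadjusted p under 0.05 and by DESeq2, and 20 EGFR-MAPK genes were higher and 2 lower (median 0.72). In Lip-1+FAC against control the counts were 8 higher and 4 lower for the first list, and 9 higher and 8 lower for the second.

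Stress responses other than NRF2 moved in parts. Of 41 genes of the integrated stress response, the ATF4 programme that follows amino acid or protein-folding stress, 17 fell and 10 rose. For this response the called share was 65.9%, beside 39.9% of all genes. Of its 6 transcription factors 4 fell, as did 4 of its 5 feedback genes. Gdf15, a secreted stress signal, stood at 99.9, 153 and 91.8 CPM in FAC and 64.0, 65.4 and 63.1 CPM in Lip-1+FAC. Gdf15 changed by -0.84 (± 0.152 SE, adjusted p by edgeR 0.00101), Sesn2 by -0.61 and Ddit3 by -0.48. With offsets for GC content and length Gdf15 changed by -0.47, and with the stranded columns summed Ddit3 changed by -0.26. Atf4 itself changed by -0.19. Amino acid enzymes moved the other way, 4 higher and 1 lower of 9, with Phgdh, the entry to serine synthesis, rising by 0.68 and Asns not called at 0.15. Fgf21, a fasting hormone of the liver, stood at 2.85, 2.49 and 3.43 CPM in FAC and 12.7, 6.47 and 8.33 CPM in Lip-1+FAC, and rose by 1.67 (± 0.411 SE, adjusted p by edgeR 0.00833).

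Of 25 genes of chaperones in the endoplasmic reticulum tested of 26 listed, 10 rose and 1 fell, a called share of 44% beside 39.9% over all genes, with values between -0.32 and 0.32. Hspa5 (BiP), the main chaperone there, was not called at -0.075. Among metallothionein and heat shock genes, Mt1, which binds zinc and copper, stood at 3329, 3577 and 3545 CPM in FAC and 1442, 1453 and 1022 CPM in Lip-1+FAC, and changed by -1.42 (± 0.155 SE, adjusted p by edgeR 4.37e-05). Hspa1b changed by -1.29, with counts that cannot be separated from those of Hspa1a, 99.2% identical to it, and Hsph1, another heat shock protein, rose by 0.41.

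Hepatocyte functions divided into those that rose and those that fell. Of 50 genes of fatty acid oxidation and ketogenesis, 24 rose and 6 fell (60% called, beside 39.9% of all genes). Their median was 0.30.

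Cpt1a, the gate of fatty acid entry into mitochondria, stood at 55.3, 56.9 and 56.4 CPM in FAC and 96.2, 94.8 and 102 CPM in Lip-1+FAC, and rose by 0.79 (± 0.067 SE, adjusted p by edgeR 7.63e-08). Cd36, a fatty acid uptake protein, rose by 1.94, Vnn1, a pantetheinase, by 1.47, and the coactivator Ppargc1a by 0.59. Ppara, the receptor that governs the pathway, went down, at 27.1, 26.7 and 24.2 CPM in FAC and 14.0, 16.8 and 17.6 CPM in Lip-1+FAC. Its log2 fold change was -0.69 (± 0.109 SE, adjusted p by edgeR 6.72e-05), and Cyp4a10 (-0.95) and Fabp1 (-1.11) fell as well. In FAC against control 1 gene of the list was higher and 31 were lower (median -0.42), and in Lip-1+FAC against control 6 were higher and 10 lower.

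Bile acid and transporter genes rose in 17 and fell in 4 of 28 cases tested of 35 listed. That is 75% called, beside 39.9% of all genes, with a median of 0.54. Abcb11, the bile salt export pump, stood at 14.7, 12.5 and 14.1 CPM in FAC and 37.5, 30.2 and 39.1 CPM in Lip-1+FAC, and rose by 1.38 (± 0.148 SE, adjusted p by edgeR 2.85e-06). Baat, which joins bile acids to taurine, rose by 1.28 and Nr1h4, the bile acid receptor FXR, by 0.93. Slc10a1, the uptake transporter of bile salts, was not called at 0.25. Slc22a7, an organic anion transporter, stood at 2.74, 3.20 and 2.66 CPM in FAC and fell, to 0.728, 0.715 and 1.27 CPM in Lip-1+FAC.

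Of 42 P450 genes of families 1 to 3 and their electron donors tested of 48 listed, 19 rose and 10 fell. That is 69% called, beside 39.9% of all genes. Cyp2b10, a phenobarbital-inducible enzyme, stood at 727, 679 and 605 CPM in FAC, at 1680.3, 1499.5 and 1641 CPM in Lip-1+FAC and 1482, 1604 and 1484 CPM in control, and rose by 1.26 (± 0.0748 SE, adjusted p by edgeR 1.82e-09). Cyp3a11 rose by 0.78 and Cyp1a1, a target of the aryl hydrocarbon receptor, by 1.67. Cyp2e1, the ethanol-oxidising enzyme of pericentral hepatocytes, stood at 443, 388 and 518 CPM in FAC and 129, 142.2 and 155 CPM in Lip-1+FAC, and changed by -1.66 (± 0.13 SE, adjusted p by edgeR 1.44e-06). Cyp2s1 changed by -2.84, from 26.9 ± 4.22 to 3.76 ± 1.38 CPM (SD, n = 3). Of 16 pericentral genes tested 9 fell and 3 rose, and of 19 periportal genes 8 fell and 3 rose. These were 75% and 57.9% called, beside 39.9% of all genes.

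Plasma proteins moved both ways. Of 51 carriers, apolipoproteins and acute phase genes tested of 52 listed, 25 fell and 15 rose. Their called share was 78.4%, beside 39.9% of all genes, and their median was -0.34. Albumin, Alb, stood at 10337, 9901 and 9400.1 CPM in FAC and 7868, 8129.5 and 9029.9 CPM in Lip-1+FAC, and changed by -0.24 (± 0.0639 SE, adjusted p by edgeR 0.00553). Apoa1 changed by -0.66 and Ttr by -0.47. The serum amyloid genes Saa1 and Saa2, 96.7% identical, changed by -1.40 and -1.67, whereas haptoglobin, also an acute phase protein, rose. Of 43 coagulation and complement genes tested of 44 listed, 16 rose and 11 fell (62.8% called). Coagulation factors fell more often (6 of 14, with 3 higher), and complement genes rose more often (10 of 21, with 4 lower). C6, a subunit of the membrane attack complex, rose by 1.42 and Pros1 (protein S, an anticoagulant) by 1.31.

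Transcription factors of hepatocytes did not move as a block, with 6 higher and 11 lower of 33 (51.5% called, beside 39.9% of all genes). Hnf4a stood at 327, 327 and 304 CPM in FAC and 283, 291 and 339.9 CPM in Lip-1+FAC, overlapping ranges, and was not called at -0.069. Cebpa was not called either (0.12). Foxa1 rose by 0.46 and Gata4 by 0.70, and Onecut2 changed by -1.41.

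Of 48 genes of gluconeogenesis, the urea cycle and amino acid breakdown, 17 rose and 13 fell (62.5% called, beside 39.9% of all genes). Tryptophan and NAD genes rose in 6 of 10 cases, with Tdo2, the first enzyme of tryptophan breakdown, rising by 1.27 and Kynu by 1.89. Cps1, the first enzyme of the urea cycle, stood at 785, 806 and 543 CPM in FAC and 893, 1105 and 1106 CPM in Lip-1+FAC, and rose by 0.54 (± 0.16 SE, adjusted p by edgeR 0.0222). That call was lost without Lip-1+FAC replicate 2 or 3, in a fit limited to the 6 libraries, and with no filter on low counts. Pck1, the gate of gluconeogenesis, changed by -1.21 and Gls2, the liver glutaminase, by -1.13.

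Mitochondrially encoded mRNAs were lower in Lip-1+FAC. They made up 1.06% ± 0.0309 of the gene-assigned reads in FAC and 0.656% ± 0.0337 in Lip-1+FAC (SD, n = 3), with the control libraries at 0.856% to 1.06% and the MT+FAC libraries at 0.525% to 0.592%. The difference of -0.409 percentage points had an exact two-sided permutation p of 0.1, the smallest that 3 against 3 libraries allow. Of the 13 genes 10 were tested, and these 10 were called lower, with a median of -0.73. Among them mt-Co1, a subunit of complex IV, stood at 6634, 6419 and 6460.0 CPM in FAC and 3566, 3923 and 3972 CPM in Lip-1+FAC, and changed by -0.77 (± 0.0787 SE, adjusted p by edgeR 8.15e-07).

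The calls of mt-Nd2, mt-Nd6 and mt-Atp6 were lost without FAC replicate 3 or without Lip-1+FAC replicate 3, and 1 or more of them without 3 of the other 4 libraries of these groups. Multimapping reads are left out of these counts, and 7 of the 10 genes have copies of at least 95% identity in the annotation. Among these mt-Co2, mt-Co3 and mt-Atp6 had means of at most 4.83 CPM in each group, whereas mt-Co1, 97.6% identical to Gm13340 over its whole length, was abundant. These mitochondrial levels are therefore uncertain, and the share of multimapping reads differed between the groups as given above.

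The calls of nuclear genes of oxidative phosphorylation depended on the processing and on single libraries. Of 74 subunits 16 were called lower and 5 higher, with a median of -0.23, and the called share of 28.4% was below that of all genes. Offsets for GC content and length left 8 lower and 12 higher with a median of 0.0032. Without FAC replicate 3 the counts were 6 lower and 5 higher, without Lip-1+FAC replicate 3 they were 7 and 3, and without FAC replicate 1 they were 10 and 5. Cox5a, Cox8a and Uqcr11 were called lower, at -0.66, -0.59 and -0.55, but the offsets brought Cox8a to -0.011 and Uqcr11 to 0.037. The call of Cox5a was lost without any 1 of 5 of the 6 libraries compared, and that of Uqcr11 likewise, the exception being Lip-1+FAC replicate 1 for both. With the stranded columns summed the value of Cox5a was -0.17. Lip-1+FAC replicate 3 had the lowest value of the group for all 3 genes, for example 32.7, 27.6 and 16.9 CPM for Cox5a.

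Of 26 NF-kB and chemokine genes tested of 35 listed, 11 fell and 3 rose (53.8% called, beside 39.9% of all genes). Without FAC replicate 2 the count of falls was 6. Cxcl2, a neutrophil attractant, stood at 6.72, 6.61 and 3.23 CPM in FAC, at 0.546, 0.357 and 0.592 CPM in Lip-1+FAC and 0.299, 0.15 and 0.276 CPM in control, and changed by -3.48 (± 0.354 SE, adjusted p by edgeR 6e-07). Cxcl1 changed by -1.76, whereas Ccl2, a monocyte attractant, was not called, at 0.52. Of 28 p53 and apoptosis genes 13 fell and 2 rose (53.6% called, beside 39.9% of all genes). Cdkn1a (p21), which halts the cell cycle, went from 396 ± 36.7 to 196 ± 23.0 CPM (SD, n = 3). Bcl2l1, which protects from apoptosis, changed by -1.11.

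Of 32 cell cycle genes tested 8 were higher and 5 lower, a called share of 40.6%, near the 39.9% of all genes, and with a mean of at least 5 CPM asked of each gene 3 were higher and 5 lower. Ccnb1, a cyclin of mitosis, was near the detection limit, at 0.0365, 0.23 and 0.444 CPM in FAC and 1.42, 1.11 and 1.23 CPM in Lip-1+FAC, and rose by 2.41. The replication helicase gene Mcm6 changed by -1.39. Of 19 clock genes 11 fell and 3 rose (73.7% called, beside 39.9% of all genes). Per1 stood at 41.6, 39.8 and 39.6 CPM in FAC and 15.7, 15.2 and 20.0 CPM in Lip-1+FAC. Per1 changed by -1.25 (± 0.135 SE, adjusted p by edgeR 1.78e-06) and Ciart by -1.64, while the core activators Arntl (-0.068) and Clock (0.13) were not called.

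Liproxstatin-1 was also set beside Mito-TEMPO, the other scavenger given before FAC, because these groups share no library. Of 13535 genes, 182 were called (1.34%), 119 higher in Lip-1+FAC (0.879%) and 63 lower (0.465%), and 1795 had an unadjusted p under 0.05. With upper-quartile scaling 97 were higher and 85 lower. The count rests on few libraries. It was 76 without Lip-1+FAC replicate 1, 77 without Lip-1+FAC replicate 2, 86 without MT+FAC replicate 2 and 74 without MT+FAC replicate 3.

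Of the 40 sterol genes 14 were higher with liproxstatin-1 (median 0.22), among them 10 of the 21 synthesis enzymes. None was called lower by edgeR or DESeq2, and 4 were lower at an unadjusted p under 0.05. Scd2 stood at 25.2, 21.1 and 23.3 CPM in MT+FAC, below each Lip-1+FAC library, a difference of 0.79 (± 0.097 SE, adjusted p by edgeR 0.000313). Insig1 stood at 232, 232 and 251 CPM in Lip-1+FAC and 148.9, 131 and 139 CPM in MT+FAC, a difference of 0.77 (± 0.0661 SE, adjusted p by edgeR 1.23e-05). Hmgcs1 differed by 0.58 and Idi1 by 0.74. Of the 51 NRF2 genes 15 were higher with liproxstatin-1 (median 0.23) and 0 lower, also 0 at an unadjusted p under 0.05 and by DESeq2. Among the 15 were Slc7a11 (0.60), Abcc2 (0.60) and Srxn1 (0.43). That count was 7 without Lip-1+FAC replicate 1 or without MT+FAC replicate 3, 8 without Lip-1+FAC replicate 2, 9 without MT+FAC replicate 1 and 23 with no filter on low counts.

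Genes lower with liproxstatin-1 than with Mito-TEMPO included Emp1, at 2.69, 3.15 and 2.83 CPM in Lip-1+FAC and 6.50, 10.3 and 12.7 CPM in MT+FAC, a difference of -1.75 (± 0.208 SE, adjusted p by edgeR 0.000313). Fos differed by -0.63 and Ccn2 by -0.62, while Egr1 was higher by 0.68. Angptl4, not called against FAC, was at 125, 123 and 124 CPM in MT+FAC and at 79.6, 80.3 and 82.5 CPM in Lip-1+FAC (-0.62). The mitochondrial mRNA mt-Nd1 was higher with liproxstatin-1 by 0.86 and mt-Cytb by 0.49.

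**Figure D5:**
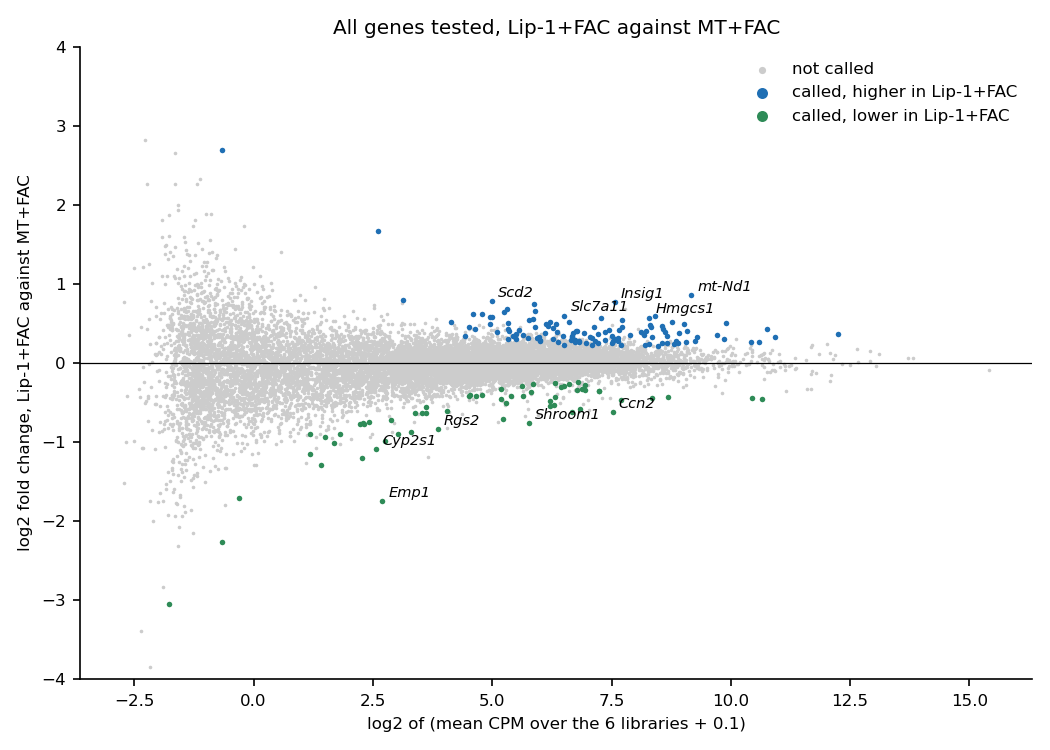
Each point is a gene tested, with log2 of its mean CPM over the 6 libraries on the horizontal axis and its log2 fold change in Lip-1+FAC against MT+FAC on the vertical axis. The 119 genes called higher in Lip-1+FAC are blue, among them Scd2, Insig1 and Slc7a11, and the 63 called lower are green, among them Emp1 and Cyp2s1.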

How the data were processed

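RNA of primary mouse hepatocytes was extracted on columns with DNase, amplified with SMART-Seq v4, made into Nextera XT libraries and read in pairs of 100 bases, per the labels' protocols. The authors deposited gene counts per library. The submitters' processing notes name STAR and GRCm38, and the annotation and counting options are not given in the sources used here. The unstranded count column was used without its 4 rows of unassigned reads, which held 18.8% to 24.2% of the listed reads. GENCODE M21 gave names to 55227 of 55487 gene IDs. Gene-assigned totals are in the report, and p-values cover the spread between libraries only.

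All 12 libraries were fitted together with edgeR 4.0.16 (R 4.3.3), using filterByExpr, TMM scaling and the quasi-likelihood test, and p-values were adjusted by Benjamini-Hochberg over all genes tested. An adjusted p under 0.05 made a call. Levels are CPM on TMM-scaled library sizes. Lip-1+FAC was tested against FAC (the main comparison), MT+FAC and control, and FAC against control. Alternatives were DESeq2 1.42.0, other scalings, filters, offsets, a replicate block, thinning of FAC replicate 2 and leaving out each library. Scripts were tested on simulated data. Near-identical copies were searched with BLAST 2.17.0+, and motifs in RefSeq promoter windows of GRCm38.p6, where no protein sequence was used.

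The comparison, the gene lists and the marker lists were chosen with earlier results of these data known. Genes were named by a rule. Among protein-coding genes that were called, averaged at least 5 CPM and had groups that did not overlap, the 15 largest rises and 15 largest falls were eligible. Added were up to 4 called members with the largest change in each list, the 8 largest differences each way from MT+FAC, the mitochondrially encoded genes and a fixed set. Other list members were named for their role after their values were seen. Same-numbered FAC and Lip-1+FAC libraries did not deviate together (correlations of 0.106, -0.0213 and -0.0615). Whether the numbers pair the samples is not stated, and 3 libraries a group are too few to tell. Some genes that the rule would name are not reported here.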

Additional observations from a re-analysis of the deposited data

How the results depend on the processing

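The count of 5397 genes called between Lip-1+FAC and FAC was 5384 with RLE scaling, 5393 with upper-quartile scaling, 5399 without a filter on low counts, 4476 with a mean of at least 5 CPM, 5937 with the stranded columns summed, 5086 with only the compared libraries, 5354 with FAC replicate 2 thinned, 5340 with offsets for GC content and length and 5430 with DESeq2. Leaving out 1 library gave 4566 to 4990. A required log2 change of 1 or more in size left 1115 genes in this comparison, 11 between Lip-1+FAC and MT+FAC, 553 between Lip-1+FAC and control and 760 between FAC and control. Between Lip-1+FAC and MT+FAC the count of 182 was 477 without the filter, 312 with only the compared libraries and 437 with DESeq2, and it ranged from 74 to 156 when 1 library was left out. The higher share of these calls was 65.4%, against 53.3% with upper-quartile scaling, 50.3% without the filter, 77.0% with the offsets and 55.4% with DESeq2. The causes were not tested.

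With the replicate number as a block, 5278 genes were called between Lip-1+FAC and FAC, 193 against MT+FAC, 3961 against control and 4863 between FAC and control. The log2 ratio of the mitochondrial mRNA share, -0.70, was -0.63 over all listed reads and -0.74 to -0.67 with 1 library left out.

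Of 174 genes under the naming rule, 20 lost their call, 1 gained one and 2 turned their sign under at least 1 alternative run, and the rest kept call and direction under each alternative that tested them. A mean of at least 5 CPM left 31 of the 174 untested, and the fit to only the compared libraries left some untested. The sign of Scd1 turned with a mean of at least 5 CPM (-0.010), with only the compared libraries (-0.0011), with the offsets (-0.067), without FAC replicate 2 (-0.067), without Lip-1+FAC replicate 1 (-0.031) and without Lip-1+FAC replicate 3 (-0.029), with a range of -0.067 to 0.091 over the libraries left out, and that of Uqcr11 with the offsets (0.037). With 3 libraries a group, and reads of PCR products without molecular identifiers, genes near 1 CPM were measured least precisely.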

Other observations

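Processed pseudogenes moved mostly one way. Of 557 processed pseudogenes tested, 112 were lower and 7 higher in Lip-1+FAC than in FAC, a called share of 21.4%, beside 42.6% of the 11876 protein-coding genes tested, of which 2701 were higher and 2356 lower. Among other RNA classes, 11 were higher and 23 lower of 163 processed transcripts, 47 higher and 40 lower of 263 long intergenic RNAs, and 19 higher and 12 lower of 240 antisense RNAs. Reads mapping to several places made up 5.85% to 6.23% of the reads in FAC and 4.93% to 5.19% in Lip-1+FAC, and their part in the pseudogene counts was not tested.

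Erythroid markers were low, with a summed level of 7.57 to 12.9 CPM in FAC and 5.06 to 6.26 CPM in Lip-1+FAC and 3 of 6 markers at 0 in every library.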
